A study of Mus musculus with 1049 samples.

Results

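The genes described are the subunits of oxidative phosphorylation, the machinery with which mitochondria turn the energy of nutrients into ATP. They were taken by symbol from the protein-coding genes of the deposited count tables: the Ndufa, Ndufb, Ndufc, Ndufs and Ndufv genes of complex I, Sdha to Sdhd of complex II, the Uqcr genes of complex III, the Cox4 to Cox8 genes of complex IV, the Atp5 genes of complex V, and all protein-coding genes of the mitochondrial genome. This gave 97 of 51777 genes, 84 encoded in the nucleus and 13 in the mitochondrial genome. The nuclear set held 37 genes of complex I, 4 of complex II, 8 of complex III, 18 of complex IV and 17 of complex V. The mitochondrial set held 7 genes of complex I, 1 of complex III, 3 of complex IV and 2 of complex V. The symbol rule also takes in Atp5s, an assembly factor that is no subunit of the ATP synthase, and Ndufa4, which current structures place in complex IV.

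In the respiratory chain, complexes I and II feed electrons from NADH and succinate into ubiquinone, complex III passes them to cytochrome c, and complex IV hands them to oxygen. Complexes I, III and IV pump protons across the inner membrane, and complex V, the ATP synthase, lets them flow back to make ATP. Complex II is encoded in the nucleus alone, while the other complexes join proteins made in the cytosol with a few made inside the mitochondrion. Nuclear genes have promoters of their own, whereas the mitochondrial genes are cut from long transcripts of a small circular genome.

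The cells were single dermal fibroblasts, the matrix-making cells of the skin, from C57Bl/6 mice of 3 ages. They were read with Smart-seq2, which copies polyadenylated RNA along its length and here carried no molecular identifiers. Newborn mice were 1.5 or 2.5 days old (the protocols also name female littermates of postnatal day 2 for newborn subpopulations), young mice 2 months and old mice 18 months. The labels give no agent or altered gene for these groups and name no mice, so how many animals stand behind an age is unknown, and p-values measure the spread between sums that may be technical. Cells were sorted after staining for CD45, CD117, EpCam, CD31, CD34 and Pdgfra. The 861 wells came from 9 plates (5 of experiment 1, 4 of experiment 2), and each plate held every age. Kept were 736 cells in which 1000 genes or more were read and mitochondrial reads made up no more than 25%. By age this left 249 from 256 newborn wells, 247 from 287 young wells and 240 from 318 old wells. Of the 125 others, 124 fell short on genes and 106 exceeded the mitochondrial limit (1 newborn, 37 young, 68 old), so shares of mitochondrial reads hold for kept cells only. Adding the reads of kept cells by age and experiment made 6 sums, 119682449 to 195324769 reads each, with n = 2 sums per age.

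The labelled cell type was checked on marker genes. All 8 fibroblast markers were read, and their summed level in CPM, read counts scaled to a common library size as described below, was 67135 to 80259 in newborn, 185430 to 188040 in young and 139500 to 148420 in old sums. Dcn made most of the adult values, at 104150 to 116230 CPM, against 13909 to 17367 CPM in newborn sums. Lum, Cd34 and Thy1 were also higher in adult sums. Col1a1 and Col1a2 were highest in young and lowest in old sums, Col3a1 was lower at each later age, and Pdgfra overlapped. The macrophage markers Ptprc, Adgre1, C1qa and C1qb were at 0 in all sums, and the list of 7 summed to 0 to 2.09 CPM in newborn, 45.7 to 170 in young and 11.5 to 26.8 in old sums. Most of the young values came from Csf1r, at 160 and 36.7 CPM. The endothelial markers Cdh5 and Emcn were at 0, and the list of 6 summed to 5.65 to 26.5 CPM in newborn and 44.5 to 82 in adult sums. Most of the adult values came from Plvap, at 39.7 to 76.7 CPM. Over all 6 sums the lists of keratinocytes (18.9 to 72.4 CPM), mural cells (21.4 to 133), melanocytes (1.07 to 18.4), Schwann cells (1.65 to 41.2), adipocytes (0.0334 to 2.87), mast cells (0 to 0.161), T cells (0 to 2.26), skeletal muscle (0.695 to 6.41) and erythrocytes (0 to 1.17) were low beside the fibroblast list. In adult sums most of the mural list came from Kcnj8, at 51 to 121 CPM. The part of these cells in the results was not tested.

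Some mitochondrial genes overlap, which bears on their counts. The genes mt-Atp8 and mt-Atp6, both of complex V, share 43 bases of the same strand at chrM:7927-7969 (GENCODE M21, GRCm38). The shared stretch is shown because mt-Atp8 is only 204 bases long. Capitals mark the start codon of mt-Atp6 and the stop codon of mt-Atp8.

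mt-Atp8 and mt-Atp6: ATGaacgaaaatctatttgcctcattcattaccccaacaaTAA

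The genes mt-Nd4l and mt-Nd4 share 7 bases, and mt-Nd5 and mt-Nd6 share 14 bases on opposite strands. How reads in such stretches were counted, and whether strand was used, is not given in the sources used here. The levels of mt-Atp8 and mt-Nd6 are uncertain to that extent.

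Of the nuclear genes, 4 promoters are shown: those of the 2 members with the lowest and the 2 with the highest log2 fold change from newborn to young, among members of at least 10 CPM whose entries were used here. Ndufv3 and Ndufs3 were thus chosen after their values were seen. The sequences are RefSeq promoters of GRCm38.p6, from 250 bases before to 50 bases after the start, read along the gene: Atp5o chr16:91931581-91931880 (minus strand), Atp5g2 chr15:102670998-102671297 (minus strand), Ndufv3 chr17:31519865-31520164 (plus strand) and Ndufs3 chr2:90904672-90904971 (minus strand). Capitals mark matches on either strand to the letters of NRF1 (GCGCNTGCG), ETS factors such as GABPA (CCGGAAG), YY1 (AAGATGG) and hypoxia-inducible factors (ACGTG). NRF1, GABPA and YY1 are known regulators of nuclear respiratory genes.

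Atp5o: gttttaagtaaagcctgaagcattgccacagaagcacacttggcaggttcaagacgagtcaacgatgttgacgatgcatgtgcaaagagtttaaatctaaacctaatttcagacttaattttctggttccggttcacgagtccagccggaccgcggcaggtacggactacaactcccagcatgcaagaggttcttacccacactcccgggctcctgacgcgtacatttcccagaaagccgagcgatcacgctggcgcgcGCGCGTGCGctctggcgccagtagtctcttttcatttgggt

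Atp5g2: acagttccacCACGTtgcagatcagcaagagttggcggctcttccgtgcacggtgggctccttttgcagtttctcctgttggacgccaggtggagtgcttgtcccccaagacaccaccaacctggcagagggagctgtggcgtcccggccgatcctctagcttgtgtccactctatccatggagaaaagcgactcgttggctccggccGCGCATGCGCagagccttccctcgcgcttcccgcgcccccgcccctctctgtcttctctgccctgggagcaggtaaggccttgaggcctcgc

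Ndufv3: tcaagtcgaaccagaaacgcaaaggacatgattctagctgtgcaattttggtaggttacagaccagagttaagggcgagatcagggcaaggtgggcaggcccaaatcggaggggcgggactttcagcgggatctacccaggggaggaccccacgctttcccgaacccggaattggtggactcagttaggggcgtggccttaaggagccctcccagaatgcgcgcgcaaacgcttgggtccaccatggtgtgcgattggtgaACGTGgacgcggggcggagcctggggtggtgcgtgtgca

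Ndufs3: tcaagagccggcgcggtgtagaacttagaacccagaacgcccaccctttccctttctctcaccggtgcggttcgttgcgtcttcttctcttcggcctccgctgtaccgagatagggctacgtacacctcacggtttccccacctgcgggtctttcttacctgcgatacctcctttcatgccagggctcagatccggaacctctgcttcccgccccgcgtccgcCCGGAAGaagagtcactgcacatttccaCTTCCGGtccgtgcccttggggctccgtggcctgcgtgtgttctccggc

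An entry was found for 66 of the 84 nuclear genes. The NRF1 letters stood in 21 of them (31.8%), against 6.59% of all 27025 promoters of that length. Among 4245 promoters of protein-coding genes read in 10% or more of the cells of some age, here called widely read genes, the share was 15.9%. By complex, the NRF1 letters were in 9 of 32 promoters of complex I, 2 of 3 of complex II, 3 of 5 of complex III, 6 of 13 of complex V and 1 of 13 of complex IV. The ETS letters stood in 22.7% of the members' promoters, in 9.12% of all and in 20.4% of those of widely read genes. The same shares were 13.6%, 6.47% and 8.34% for YY1, and 24.2%, 19.7% and 28.4% for the hypoxia letters. Bases G and C made up a median of 57.2%, 52.7% and 61% in the same order, so base composition differs between the lists too. A match is a run of letters and no measure of binding.

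As a share of all gene reads, both sets were smaller in young than in newborn cells. The nuclear set took 1.87% and 1.39% of newborn reads (experiments 1 and 2), 1.18% and 0.914% of young reads and 1.22% and 1.12% of old reads. The means were 1.63% ± 0.343, 1.05% ± 0.185 and 1.17% ± 0.0718 (SD, n = 2), and both newborn sums lay above the 4 adult sums. The mitochondrial set took 2.66% and 3.31% of newborn reads, 2.04% and 1.92% of young reads and 2.27% and 2.49% of old reads. Its means were 2.99% ± 0.458, 1.98% ± 0.0852 and 2.38% ± 0.154 (SD, n = 2). Newborn sums were the highest and young sums the lowest, with no overlap between ages.

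Plates hold all ages side by side. Young cells had the smaller share on 9 of 9 plates in either set, with young-to-newborn ratios of 0.573 to 0.716 for the nuclear and 0.514 to 0.859 for the mitochondrial set. Old cells were above young cells on 7.0 of 9 plates in the nuclear and 8.0 of 9 in the mitochondrial set. They were below newborn cells on 9 of 9 plates in both. The shares have no test of their own. Plates of the same experiment may hold cells of the same mice, which the labels do not name. The plates are thus not independent replicates of an age, and their spread may be technical. It does not give the error of a difference between ages, and the plate counts describe direction only.

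**Figure D1:**
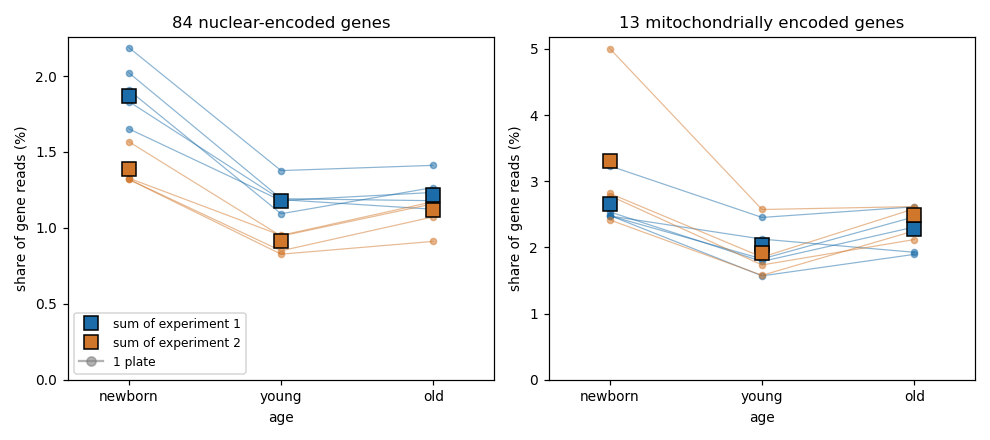
Share of gene reads (%, axes from 0) on the nuclear-encoded (left) and the mitochondrially encoded set (right) by age. Squares are the sums of experiments 1 and 2, and small points joined by lines are the 9 plates. Young cells lie below newborn cells on 9 of 9 plates in both panels.

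A share depends on what else is read. Decorin (Dcn), a small proteoglycan of the dermis, alone took 2.09% and 1.66% of newborn reads and 9.43% to 10.7% of the reads of adult sums. The TMM factors of edgeR, which scale a library by what most genes do, were 1.20 and 1.19 in newborn and 0.880 to 0.950 in adult sums. With library size alone the median log2 fold change of all 16684 genes tested was -0.49 from newborn to young, against -0.07 with TMM. From here on, levels of sums and fold changes are on the TMM scale, and thus relative to most genes. On that scale the nuclear set summed to 15559 and 11656 CPM (newborn), 12993 and 10396 CPM (young) and 12841 and 12146 CPM (old). The mitochondrial set summed to 22137 and 27814 CPM (newborn), 22574 and 21856 CPM (young) and 23919 and 27046 CPM (old). Newborn and adult sums overlapped in both sets.

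From newborn to young cells the median log2 fold change of the 80 nuclear genes tested was -0.22, against -0.07 over all genes. It was -0.49 in complex V, -0.19 in complex I, -0.15 in complex IV, -0.06 in complex III and 0.34 in complex II. With library size alone these medians were -0.64 over the set and, in the same order, -0.92, -0.61, -0.57, -0.49 and -0.08, so complex II turned sign. The change of scaling moves all genes by nearly the same amount, so the order of the complexes could hardly change. Over members with reads in every sum, the nuclear median was -0.28 within experiment 1 and -0.02 within experiment 2, against -0.01 and -0.03 over all genes with reads in every sum. The set thus lay below all genes within experiment 1 and not within experiment 2. Complex V was at -0.56 and -0.30. Without the newborn sum of experiment 1 the nuclear median was 0.18, and without the young sum of experiment 2 it was 0.02. Leaving out 1 sum unbalances the experiments, which differ in these genes as described below.

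No member passed the test in young against newborn cells. edgeR's quasi-likelihood test, adjusted by Benjamini-Hochberg over all genes, called 0 of 80 nuclear and 0 of 13 mitochondrial genes, where it called 0.779% of all genes (130). At an unadjusted p under 0.05 there were 7 nuclear and 0 mitochondrial genes, next to 2212 of all 16684 genes. DESeq2 called Ndufa4l2 higher and Atp5c1, Atp5f1 and Cox6c lower, next to 1345 higher and 1012 lower of all 16684 genes. limma on the mean log2(CPM + 1) of the cells called Ndufa4l2 higher and Atp5h, Atp5o and Cox7a2 lower. Over all 16684 genes limma called 328 higher and 764 lower. In 20 nuclear genes (25%) both young sums lay below both newborn sums, next to 25.1% of all genes. In 11 (13.8%) they lay above, next to 22.1% of all genes. Complex V had 10 of its 17 genes below in this way and 0 above.

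The plates were counted on raw CPM, without the TMM factor, and so with the shift of -0.49 over all genes that library size alone gives. Members were also read in more cells than widely read genes. The medians were 64.6% and 70.3% of newborn cells for nuclear members, against 17.7% and 24.2%. The part of shift and level in these and later plate counts was not tested. Lower in young than in newborn cells on every plate were 27 of 80 nuclear genes, next to 6.46% of all genes and 14.6% of widely read genes. These were 12 of 17 in complex V, 7 of 14 in complex IV, 7 of 37 in complex I, 1 of 4 in complex II and 0 of 8 in complex III. Of the mitochondrial genes 6 of 13 were lower on every plate. Ndufa4l2 was the 1 member that was higher on every plate, next to 2.78% of all genes and 6.455% of widely read genes.

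**Figure D2:**
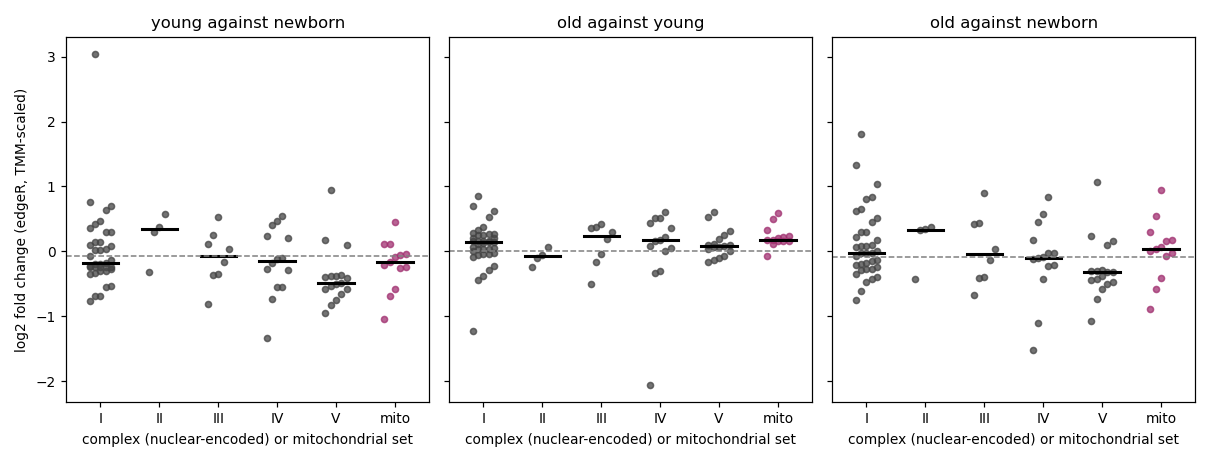
Log2 fold changes (edgeR, TMM-scaled) of the 93 members tested, by complex for nuclear-encoded genes and as 1 set for mitochondrially encoded genes ("mito"), in the 3 comparisons. Each point is 1 gene, thick lines are medians and the dashed line is the median of all genes tested. Complex V lies below the dashed line in young and in old against newborn cells, with medians of -0.49 and -0.32, and the highest point is Ndufa4l2 at 3.04.

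From young to old cells the median log2 fold changes were 0.11 over the nuclear and 0.18 over the mitochondrial genes, against 0 over all genes. Within experiments 1 and 2 the nuclear medians were 0.05 and 0.23, and the mitochondrial ones 0.05 and 0.29. Without the young sum of experiment 2 the nuclear median was -0.052, and without the old sum of experiment 2 the mitochondrial one was 0.029. By complex the nuclear medians were 0.14 (I), -0.08 (II), 0.24 (III), 0.17 (IV) and 0.08 (V). On the mean log2 values per cell, where a cell without a read counts as 0, the nuclear median was instead -0.14.

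edgeR called 0% of the genes in old against young cells, and so 0 members. At an unadjusted p under 0.05 there were 810 genes, 2 of them nuclear members and 0 mitochondrial ones. DESeq2 called 397 genes higher and 650 lower, Atp5f1 among the higher and Ndufa4l2 among the lower, and limma called 0 members. Both old sums lay above both young sums in 13 nuclear (16.2%) and 4 mitochondrial genes (30.8%), next to 15% of all genes. They lay below in 6 nuclear (7.50%) and 0 mitochondrial genes, next to 15.9%. Ndufa4l2 was the 1 nuclear gene lower in old cells on every plate, as were 0.378% of all genes and 0.846% of widely read genes. Uqcrb, Cox5b, Cox7a2 and the mitochondrial mt-Atp6 were higher on every plate, next to 0.551% of all genes and 1.28% of widely read genes.

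From newborn to old cells the median was -0.10 over the nuclear and 0.04 over the mitochondrial genes, against -0.08 over all genes. With library size alone they were -0.45, -0.32 and -0.44, so the mitochondrial median turned sign with the scaling. Complex V was lowest again at -0.32 and complex II highest at 0.33 (-0.02 with library size alone). By experiment complex V was at -0.47 and -0.09, against -0.02 and -0.004 over all genes with reads in every sum. Within experiments the nuclear medians had opposite signs, -0.35 and 0.24, and without the newborn sum of experiment 1 the median was 0.28. edgeR called 0 members, where it called 0.935% of all genes (156). At an unadjusted p under 0.05 there were 9 nuclear genes and 1 mitochondrial gene, next to 2539 of all 16684 genes. DESeq2 called 6 of 80 nuclear genes and mt-Nd2 higher and 3 nuclear genes lower, next to 1436 higher and 1392 lower of all 16684 genes. In contrast, limma called 10 nuclear genes lower and 0 higher, next to 1128 lower and 289 higher of all genes. Both old sums lay below both newborn sums in 15 nuclear genes (18.8%), next to 25.7% of all genes. They lay above in 13 (16.2%), next to 21.6%. Lower on every plate were 14 nuclear genes, 9 of them of complex V, next to 5.35% of all genes and 12% of widely read genes. Of the 13 mitochondrial genes 1 was lower on every plate. Ndufa4l2, Ndufb3 and mt-Nd2 were higher on every plate, next to 2.74% of all genes and 6.34% of widely read genes. The 3 comparisons share their sums and are not independent of each other.

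Ndufa4l2 stood apart among the 37 nuclear genes of complex I. It is a relative of Ndufa4 that is known to be induced under low oxygen and to hold complex I activity down. The gene lies at chr10:127514967-127517154. Its level was 39.5 and 25.3 CPM (newborn), 334 and 200.3 CPM (young) and 122 and 107 CPM (old). The ages did not overlap: young sums were the highest and newborn sums the lowest. The means were 32.4 ± 10.1 CPM in newborn, 267 ± 94.7 CPM in young and 114 ± 10.6 CPM in old cells (SD, n = 2), a young-to-newborn ratio of 8.25. On the plates, in raw CPM, newborn cells had 26.5 to 81.9 (median 36.8), young cells 125 to 338 (median 273) and old cells 47.9 to 179 (median 116). Young cells were above both other ages on 9 of 9 plates.

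The log2 fold change of Ndufa4l2 was 3.04 (SE 0.40, edgeR adjusted p = 0.0618) in young against newborn, -1.23 (SE 0.38, edgeR adjusted p = 0.910) in old against young and 1.82 (SE 0.38, edgeR adjusted p = 0.150) in old against newborn cells. It missed the threshold in the planned test. For young against newborn it passed with no filter on low counts (edgeR adjusted p = 0.0408), with cells thinned to equal reads (0.0413), with limma (0.00359) and with DESeq2 (1.80e-11). With only widely read genes tested, a setting chosen after seeing the data, the edgeR adjusted p was 0.00594 for young and 0.0334 for old against newborn. That setting called 7.06% and 7.89% of its 6971 genes. After each cell was thinned to 100000 reads, a read of the gene was found in 22.8% and 22% (newborn cells), 69.7% and 65.4% (young cells) and 42.9% and 45.6% (old cells). The age with the higher level also had more cells with a read. Ndufa4 itself stood at 138 and 102.2 CPM (newborn), 139 and 125.9 CPM (young) and 172 and 124 CPM (old), with overlap between all ages.

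Per kilobase of annotated exons, Ndufa1, a small membrane subunit, had the highest level of the nuclear set at 404 CPM per kilobase. Here and below this length joins the exons of all annotated transcripts, 419 bases for Ndufa1 and 3567 for Cox6c. Ranks per kilobase thus depend on the annotation. Ndufb10, the complex I gene with most reads, stood at 274 and 167 CPM (newborn), 349 and 193 CPM (young) and 329 and 277 CPM (old). Both old sums of Ndufb10 lay above both newborn sums, and young sums overlapped with either. Ndufs1, which carries iron-sulfur clusters of the electron path, had the most negative value of complex I from newborn to young, -0.76 (SE 0.49, edgeR adjusted p = 0.599). Its newborn sums lay far apart within 47 and 119 CPM (newborn), 44.4 and 53.3 CPM (young) and 87.9 and 89.1 CPM (old). Without the newborn sum of experiment 2 the value for Ndufs1 was 0.06. Ndufb5, an accessory subunit, had the most negative value from newborn to old, -0.75 (SE 0.33, edgeR adjusted p = 0.377). It stood at 186 and 125 CPM (newborn), 103 and 148 CPM (young) and 88.7 and 97 CPM (old), and both old sums lay below the other 4.

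Other complex I genes had their highest levels in adult cells. Chosen after its values were seen, the accessory subunit Ndufb3 stood at 38.6 and 29.8 CPM (newborn), 60.2 and 46.2 CPM (young) and 89.7 and 82.9 CPM (old). No pair of ages of Ndufb3 overlapped, and old cells were above newborn cells on 9 of 9 plates, while young cells were above newborn cells on 5 of 9 on raw CPM. Ndufs3, a core subunit whose promoter is shown above, stood at 80.6 and 69.9 CPM (newborn), 141 and 113 CPM (young) and 177 and 132 CPM (old). Old and young sums of Ndufs3 overlapped, and both lay above newborn sums. Ndufv3, an accessory subunit whose promoter is also shown, stood at 124 and 93.6 CPM (newborn), 204 and 151 CPM (young) and 168 and 174 CPM (old), with both adult ages above newborn sums.

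Complex II, which is also the succinate dehydrogenase of the citric acid cycle, had the highest median of the complexes in both adult ages against newborn. Sdhb, its iron-sulfur subunit, stood at 350.1 and 186 CPM (newborn), 446 and 213 CPM (young) and 466.3 and 227 CPM (old). Experiment 1 was higher than experiment 2 at each age, and the ages overlapped. Sdhd, a membrane anchor, stood at 162 and 128 CPM (newborn), 248 and 186 CPM (young) and 216 and 151 CPM (old), with a log2 fold change of 0.58 (SE 0.30, edgeR adjusted p = 0.513) for young against newborn. Sdhc, the other anchor, stood at 99.9 and 101.8 CPM (newborn), 64.5 and 96.6 CPM (young) and 78.1 and 72.5 CPM (old), with -0.32 (SE 0.30, edgeR adjusted p = 0.762). Young sums lay above newborn sums in Sdhd and below them in Sdhc. Sdha, the flavoprotein with the active site, stood at 99.7 and 114 CPM (newborn), 115 and 164 CPM (young) and 114 and 154 CPM (old).

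In complex III the members lay on both sides. Uqcrc1, a core subunit, stood at 525 and 374 CPM (newborn), 321 and 193 CPM (young) and 340.4 and 346 CPM (old), with a log2 fold change of -0.81 (SE 0.33, edgeR adjusted p = 0.401) for young against newborn. All adult sums of Uqcrc1 were below the newborn sums. Uqcrb, a small subunit that helps bind ubiquinone, stood at 117 and 77.8 CPM (newborn), 140 and 141 CPM (young) and 179 and 182 CPM (old). No pair of ages of Uqcrb overlapped, though on raw CPM young cells were above newborn cells on 5 of 9 plates only. Its value for old against newborn was 0.90 (SE 0.28, edgeR adjusted p = 0.230), and DESeq2 called it (adjusted p = 0.0148). Uqcrc2, the other core subunit, stood at 159 and 151 CPM (newborn), 94.9 and 182 CPM (young) and 73.3 and 121 CPM (old), with both old sums below both newborn sums.

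In complex IV, the accessory subunit Cox6c had the most negative value from newborn to young of all members of at least 10 CPM. The gene lies at chr15:35925886-35938246. It stood at 1156 and 670.2 CPM (newborn), 409.9 and 318 CPM (young) and 382 and 471 CPM (old). Both newborn sums lay above all adult sums. The means were 913 ± 344 CPM in newborn, 364 ± 65.2 CPM in young and 426 ± 62.6 CPM in old cells (SD, n = 2), a newborn-to-young ratio of 2.51. On the plates, in raw CPM, newborn cells had 692 to 1824 (median 1118), young cells 191 to 494 (median 319) and old cells 287 to 517.5 (median 383), so no plate of adult cells reached the lowest newborn plate. The log2 fold change was -1.33 (SE 0.34, edgeR adjusted p = 0.226) for young and -1.10 (SE 0.34, edgeR adjusted p = 0.231) for old against newborn, and DESeq2 called both (adjusted p = 0.00277 and 0.0160). After thinning, a read was found in 99.4% and 100% (newborn cells), 95.1% and 98.1% (young cells) and 92.9% and 96.5% (old cells).

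Cox5b, a zinc-binding subunit at chr1:36691449-36693681, had its highest level in old cells. It stood at 117 and 90.5 CPM (newborn), 124 and 120.1 CPM (young) and 192 and 179 CPM (old), and no pair of ages overlapped. The log2 fold change was 0.60 (SE 0.24, edgeR adjusted p = 0.910) for old against young and 0.84 (SE 0.24, edgeR adjusted p = 0.220) for old against newborn, and DESeq2 called the latter (adjusted p = 0.00150). On raw CPM, old cells were above young cells on 9 of 9 plates and above newborn cells on 6 of 9, but young cells were below newborn cells on 7 of 9. Cox7a2l, which links complexes III and IV into supercomplexes, stood at 138 and 222 CPM (newborn), 243 and 256 CPM (young) and 179 and 227 CPM (old).

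Complex IV has isoforms that differ by tissue, and the fibroblasts read the widely expressed ones. Per kilobase of exons over the 6 sums, Cox4i1 was at 339 CPM per kilobase and Cox4i2, known from lung and low oxygen, at 3.13. Cox6b1 was at 327 and the testis isoform Cox6b2 at 4.08. Cox7a2 was at 169 and Cox7a1, the heart and muscle isoform, at 4.14. Cox6a1 (223 to 349 CPM in the sums), Cox7b (106 to 169 CPM) and Cox8a (142 to 235 CPM) were read. Their partners Cox6a2, Cox7b2, Cox8b and Cox8c had 0 reads in all 6 sums, which allows a level of up to 0.00312 CPM (3 of 962569828 reads, counting error only), and were not tested.

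**Figure D3:**
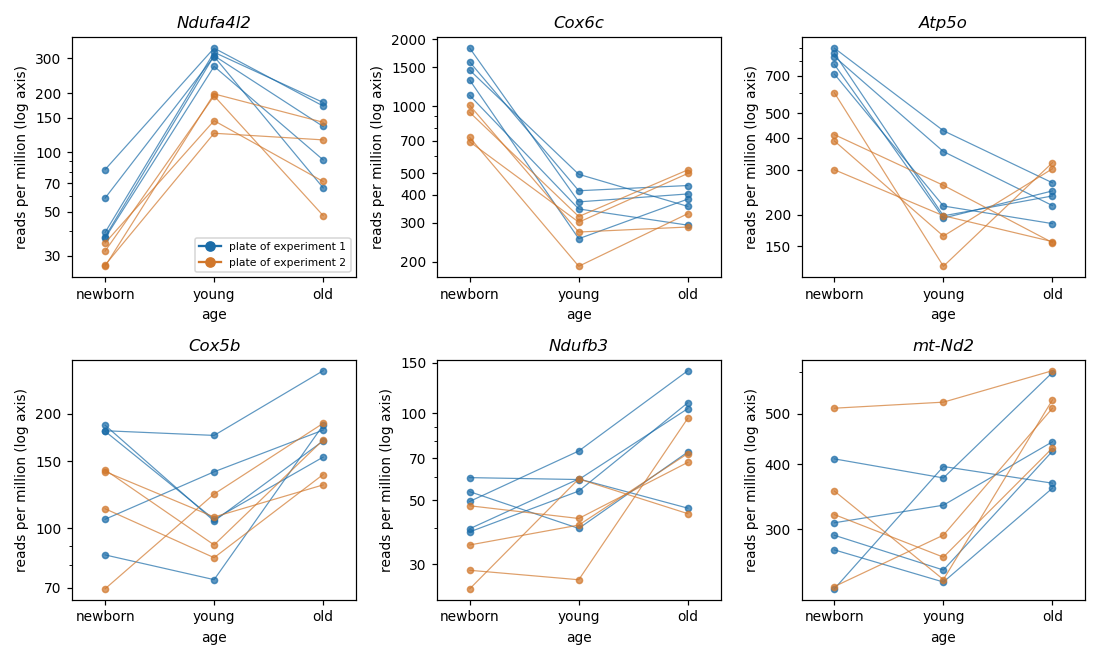
Raw CPM (log axis, without the TMM factor) of 6 members by age on the 9 plates, with lines joining the ages of a plate and colours for the experiments. Ndufa4l2 is highest in young cells and Cox6c and Atp5o are highest in newborn cells on 9 of 9 plates, and Ndufb3 and mt-Nd2 are higher in old than in newborn cells on 9 of 9 plates.

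Complex V was the complex whose members lay lowest in adult cells. Of its 17 genes, 13 were lower in young than in newborn cells in both experiments (76.5%), next to 50% of the nuclear set and 32.8% of all genes. In old against newborn cells it was 11 (64.7%), next to 31.2% and 32.7%. Atp5b, the catalytic beta subunit and the nuclear member with most reads, stood at 745 and 925 CPM (newborn), 549.7 and 732 CPM (young) and 579 and 701.4 CPM (old). Atp5c1, the rotor subunit gamma, stood at 497 and 520 CPM (newborn), 310.2 and 339 CPM (young) and 375 and 303 CPM (old); it was chosen after its values were seen. In both genes all adult sums lay below the newborn sums. Atp5o, in the stalk that holds the catalytic head (chr16:91925214-91931687), stood at 670.3 and 375 CPM (newborn), 312 and 231 CPM (young) and 243 and 253 CPM (old). Its log2 fold change was -0.94 (SE 0.35, edgeR adjusted p = 0.347) for young and -1.08 (SE 0.35, edgeR adjusted p = 0.249) for old against newborn. After thinning, a read of Atp5o was found in 94.9% and 89% (newborn cells), 64.1% and 70.2% (young cells) and 50.8% and 57.9% (old cells).

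Atp5f1, which encodes the b subunit of the stalk, differed from these. It stood at 358 and 339 CPM (newborn), 279 and 260.5 CPM (young) and 393 and 425 CPM (old). Young sums were the lowest and old sums the highest, without overlap, and the value for old against young was 0.60 (SE 0.19, edgeR adjusted p = 0.910), which DESeq2 called (adjusted p = 4.30e-05). The 3 genes of the c subunit encode the same ring protein with different import signals. Atp5g1 stood at 57.7 to 147 CPM, Atp5g2 at 14.9 to 48 CPM and Atp5g3 at 26.3 to 80.1 CPM, and reads on their near-identical coding parts make this split uncertain. Atp5s, the assembly factor, stood at 7.82 to 40.7 CPM with 0.95 (SE 0.77, edgeR adjusted p = 0.710) for young against newborn. Atp5d, the delta subunit of the head, stood at 216 and 208 CPM (newborn), 114 and 171 CPM (young) and 124 and 131 CPM (old), with all adult sums below the newborn sums.

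Fewer adult cells held a read of a nuclear member. With cells thinned to 100000 reads, the median over the 80 nuclear genes tested was 63.9% and 69.2% (newborn cells), 50% and 55.8% (young) and 48.4% and 48.2% (old); unthinned it was 64.6% and 70.3%, 51% and 59.1%, and 50% and 50.4%. The share was lower in young than in newborn cells in both experiments in 61 of 80 genes (76.2%), next to 54.8% of widely read genes and 44% of all genes. It was lower in old than in newborn cells in 68 (85%), next to 63.5% and 50.1%. Between young and old cells it was lower in 50 (62.5%), next to 44.7% and 33.2%. These backgrounds are not matched for level. In thinned newborn cells the medians were 14.6% and 18.7% for widely read genes and 3.80% and 5.49% for all genes. The part of this difference in level was not tested. The median number of genes read per thinned cell was lower in adult cells too, at 1802 and 2203 (newborn), 1646 and 2049.5 (young) and 1502.5 and 1704 (old), and its part in these shares was not tested.

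Complex V had the largest part of genes below newborn cells by this measure, with complex IV close to it in old cells. The median share of complex V genes was 73.4% and 79.1% (newborn cells), 52.1% and 57.7% (young) and 50% and 55.3% (old). Of these, 16 of 17 genes were lower than newborn in both experiments in young as in old cells. In complex IV it was 10 of 14 in young and 13 of 14 in old cells. From newborn to old cells of experiment 2, the medians of complexes II and III went from 49.5% to 28.1% and from 73.6% to 50.4%. Mitochondrial genes were read in nearly every cell, with medians of 96% to 100% in the 6 sums. On the mean log2(CPM + 1) of the cells, the nuclear medians were -1.0 in young and -1.27 in old against newborn cells, next to -0.27 and -0.38 for widely read genes. The widely read genes are again not matched for level.

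**Figure D4:**
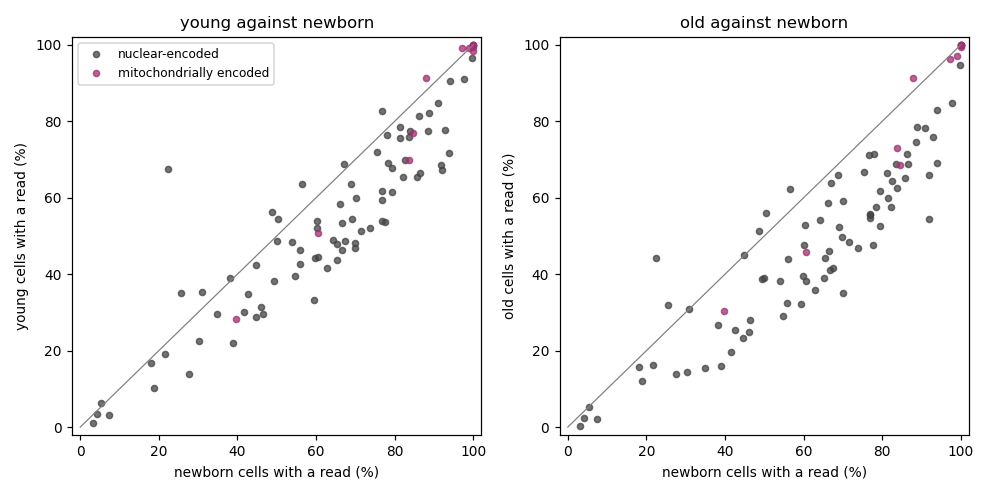
Share of cells with a read (%, cells thinned to 100000 reads, mean of both experiments) for the 93 members tested, in young (left) and old cells (right) against newborn cells. The line marks equal shares. Most nuclear-encoded genes lie below it, 61 and 68 of 80 in both experiments, and most mitochondrially encoded genes lie near 100% on both axes.

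The 13 mitochondrial genes ranged widely in level. Per kilobase, mt-Cytb, the electron-carrying subunit of complex III, was highest at 6347 CPM per kilobase over the 6 sums. It was followed by mt-Atp6 at 4158, mt-Co1 at 3853 and mt-Nd1 at 3049. At the other end were mt-Nd6, encoded on the opposite strand, at 82.8 and mt-Nd3 at 36.1. Priming with oligo-dT reads RNA by its A tail, so these levels need not follow the amount of RNA.

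The gene mt-Nd2, a proton-pumping subunit of complex I, had the most positive value of the set from newborn to old. It stood at 251 and 290.2 CPM (newborn), 367 and 373 CPM (young) and 469.6 and 571 CPM (old), and no pair of ages overlapped. The log2 fold change was 0.45 (SE 0.21, edgeR adjusted p = 0.456) for young and 0.94 (SE 0.21, edgeR adjusted p = 0.158) for old against newborn, and DESeq2 called the latter (adjusted p = 9.46e-06). On raw CPM, old cells were above newborn cells on 9 of 9 plates, but young cells on 4 of 9. The other complex I genes of the mitochondrion were not ordered in this way. Ages overlapped in each comparison in mt-Nd1 (2303 to 3929.6 CPM), mt-Nd3 (9.51 to 22.6 CPM), mt-Nd4 (948 to 1639 CPM) and mt-Nd4l (27.4 to 55.5 CPM). The gene mt-Nd5 stood at 589.6 and 638 CPM (newborn), 516 and 549 CPM (young) and 544 and 688 CPM (old), and mt-Nd6 at 50.1 and 41.9 CPM (newborn), 37.7 and 40.4 CPM (young) and 39.1 and 48.7 CPM (old). Young sums of both were below newborn sums.

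On raw CPM, mt-Cytb, mt-Co1, mt-Co2, mt-Atp6, mt-Atp8 and mt-Nd6 were lower in young than in newborn cells on 9 of 9 plates, and mt-Co3 on 8 of 9. On the TMM scale mt-Atp6, mt-Atp8 and mt-Nd6 among these had young sums below newborn sums without overlap. With mt-Nd5 this made 4 of 13 genes (30.8%), next to 25.1% of all genes. Above newborn sums lay 1 gene (7.69%), next to 22.1%. In mt-Atp8 the sums of experiment 1 lay close together, as given below. The level of mt-Cytb was 8527 and 6019.5 CPM (newborn), 7643 and 6079 CPM (young) and 7925 and 7371 CPM (old). The catalytic subunit of complex IV, mt-Co1, stood at 4608 and 6986 CPM (newborn), 5111 and 5999 CPM (young) and 5912 and 7099.6 CPM (old). The subunit next to the rotor ring of complex V, mt-Atp6, stood at 2724 and 3308 CPM (newborn), 2503 and 2526 CPM (young) and 2841 and 3086 CPM (old). In mt-Cytb and mt-Co1 the newborn sums of the experiments lay farther apart than the means of the ages.

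Newborn cells of experiment 2 were high in mt-Co2, mt-Co3 and mt-Atp8. The gene mt-Co2 stood at 835 and 1996 CPM (newborn), 950.4 and 951 CPM (young) and 955 and 1178 CPM (old). The gene mt-Co3, also of complex IV, stood at 927 and 2422 CPM (newborn), 1133 and 942 CPM (young) and 1138 and 1096 CPM (old). The gene mt-Atp8 stood at 335 and 935 CPM (newborn), 332 and 288 CPM (young) and 351 and 339.5 CPM (old), with the most negative log2 fold change of the set, -1.04 (SE 0.50, edgeR adjusted p = 0.476) for young and -0.88 (SE 0.50, edgeR adjusted p = 0.499) for old against newborn. In each of the 3 genes the newborn sum of experiment 2 was the highest of the 6 sums. On 1 plate of experiment 2, newborn cells had 6891 raw CPM of mt-Co3, where the median of the newborn plates was 1194. It held a newborn cell of 1775322 reads with 24.5% mitochondrial reads, just within the limit, and 6.50% of its reads on mt-Co3. The next highest of all kept cells had 16.2%. Without that plate the mitochondrial set took 2.67% of newborn reads in experiment 2 in place of 3.31%, close to the 2.66% of experiment 1. Without the newborn sum of experiment 2 the median of the mitochondrial set in young against newborn cells was 0.17 in place of -0.16, and mt-Atp8 in old against newborn cells was at 0.05.

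**Figure D5:**
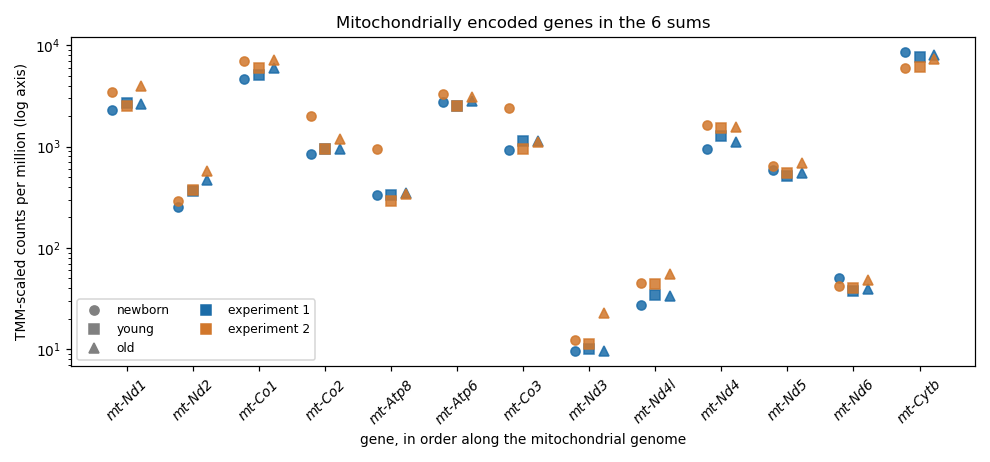
Levels of the 13 mitochondrially encoded genes (TMM-scaled CPM, log axis) in the 6 sums. Shapes are ages and colours are experiments. Newborn cells of experiment 2 lie apart in mt-Co2, mt-Co3 and mt-Atp8, and mt-Nd2 is lowest in newborn and highest in old cells in both experiments.

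The experiments differed in the sets in opposite directions. Of the 79 nuclear genes with reads in every sum, 68.0 were higher in experiment 1 among newborn, 58.0 among young and 47.0 among old sums. The median log2 ratios of experiment 1 to 2 were 0.58, 0.39, 0.13. In 40.0 genes (50.6%) experiment 1 was higher at all 3 ages, next to 15.5% of the 11576 genes with reads in every sum. Of the 13 mitochondrial genes 2.0, 4.0, 3.0 were higher in experiment 1 among newborn, young and old sums, with median log2 ratios of -0.60, -0.02, -0.30. Mitochondrial reads per nuclear member read were 1.42, 1.74, 1.86 in experiment 1 and 2.39, 2.10, 2.23 in experiment 2, in the order newborn, young, old. The ratio was lowest in newborn cells in experiment 1 and, in these sums, highest in newborn cells in experiment 2. Without the plate that held the newborn cell of highest mitochondrial share, experiment 2 gave 1.89, 1.88 and 2.14 in the same order. With thinned cells it gave 2.27, 2.34 and 2.28, and as medians over cells 2.04, 2.09 and 2.13. The place of newborn cells in experiment 2 thus depended on the setting. More genes were read per thinned cell in experiment 2 at each age, as given above, and the part of this in the ratios was not tested.

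Cells of 1 age and experiment varied too. The middle 50% of newborn cells had 1.49% to 2.21% of their reads on the nuclear set in experiment 1 and 1.11% to 1.76% in experiment 2. For young cells it was 0.992% to 1.39% and 0.744% to 0.991%, and for old cells 1.04% to 1.43% and 0.891% to 1.27%. Over the 91 to 158 cells of a sum, which share plates, the Spearman correlation of the nuclear with the mitochondrial share lay between -0.0016 and 0.309. That of the mitochondrial share with the number of genes read lay between -0.488 and -0.237, so cells with more genes read had the smaller mitochondrial share in all 6 sums.

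Other genes of mitochondrial energy metabolism were taken from fixed lists, and edgeR called 0 members of the 7 lists in the 3 comparisons. Assembly factors of the respiratory chain, which help to build the complexes, had a median log2 fold change of 0.45 from newborn to young (44 of 44 tested, 32 positive and 12 negative), where the nuclear subunits had -0.22. With library size alone the 2 medians were 0.02 and -0.64, and on the mean log2 values per cell -0.014 and -1.0. In both experiments 21 assembly factors (47.7%) were higher and 5 (11.4%) lower, next to 28.4% and 32.8% of all genes. The SE of single assembly factors was as high as 4.28. The 78 genes of the mitochondrial ribosome, which makes the 13 mitochondrial proteins, had medians of 0.03 for young against newborn, 0.15 for old against young and 0.18 for old against newborn, the last at -0.17 with library size alone. Both old sums lay above both newborn sums in 26 of these (33.3%) and below them in 10 (12.8%), next to 21.6% above and 25.7% below over all genes. In the same order of comparisons, genes that copy and express mitochondrial DNA (24 of 25 tested) had medians of -0.03, 0.36, 0.24. Genes of pyruvate entry and the citric acid cycle (19 of 19) had -0.14, 0.08, -0.11, and genes of glycolysis (18 of 19) 0.14, 0.08, -0.05. Transcriptional regulators such as Nrf1 (11 of 15 tested, Ppargc1a being at 0 in all 6 sums) had 0.16, -0.45, 0.02, and cytochrome c with the membrane carriers and channels (7 of 7) 0.14, 0.05, 0.23. Mrps2 of the mitochondrial ribosome, chosen after its values were seen, stood at 50.4 and 47.8 CPM (newborn), 10.5 and 12 CPM (young) and 4.21 and 5.67 CPM (old). Its log2 fold change was -3.31 (SE 0.54, edgeR adjusted p = 0.0843) for old against newborn, the smallest adjusted p of the listed genes in that comparison.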

How the data were processed

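RNA of single sorted fibroblasts was measured in 11 tables of whole-number counts (1 row per gene, 1 column per well), which the authors deposited without normalization; per the submitters' processing notes FastQC and the build GRCm38 were used, while the aligner, counting tool and strand setting were not given in the sources used here. Symbols and positions are from GENCODE M21 (GRCm38), which held 51633 of the 51777 genes common to all tables, with 99.9% of their reads. A pair of plates had been sequenced in a pair of runs each (median correlation of a well's runs 0.994 or more, against at most 0.430 between other plates), and these runs were added. Kept cells had 34583 to 4331293 reads. A minimum on reads was not used beside the limits on genes and mitochondrial reads, which leaves 736 cells. No doublet caller was run.

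Counts were summed by age and experiment and tested with edgeR 4.0.16 (filterByExpr, TMM, robust quasi-likelihood fit of all 3 ages, Benjamini-Hochberg, threshold 0.05) in R 4.3.3. Alternatives were the experiment as a block, RLE factors, DESeq2 1.42.0, no filter, scaling without mitochondrial genes, cells thinned to 100000 reads (1 shallower cell left out), limma 3.58.1 on mean log2(CPM + 1), other mitochondrial limits (none, 10%) and each sum left out; 3 more were chosen after seeing the data (genes read in 10% of cells of an age, library size alone, 1 plate left out). The fit was tested on simulated data. Python 3.11.15 made tables and plots.

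Members, gene lists and marker lists were chosen with earlier results of these data known. Named are all mitochondrial members, the member with most reads and the extreme fold changes of each complex among those of at least 10 CPM, and fixed isoform groups; others are said to be chosen after their values were seen. Promoters are from RefSeq tables of GRCm38.p6. Intervals and floors cover counting error only, since reads without molecular identifiers are not independent molecules.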

Additional observations from a re-analysis of the deposited data

Results flagged for a closer look

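Plates that lay apart from the others of their age were looked for in 93 values, in raw CPM, and 13 were found. Chance alone gives about 1 in 20 where values are independent, which these are not, since they share plates and cells. Of the 13, 7 were newborn cells of the same plate of experiment 2, which held the newborn cell with the highest mitochondrial share. The values without that plate stand with the mitochondrial genes above. On it the mitochondrial set took 5.004% of newborn reads, with the next plate at 3.23%. Its newborn cells had 6350 of mt-Nd1 (next plate 4331), 12300 of mt-Co1 (7621), 4293 of mt-Co2 (1873), 6891 of mt-Co3 (1434), 5721 of mt-Atp6 (4138) and 2208 of mt-Atp8 (902). Young cells of the same plate had 7486 of mt-Co1, with the next plate at 5031.

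Young cells of 1 plate of experiment 1 had 1566 of mt-Co3, with the next at 934. Old cells of 1 plate of experiment 2 had 794.2 of mt-Co3, below the next at 992. Among nuclear genes, newborn cells of single plates of experiment 1 were high in Sdhb (643.3, next 367) and Atp5s (65.97, next 25.3), and old cells of 1 plate of experiment 1 in Cox5b (259.2, next 189).

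Of 279 subunit comparisons looked at over the experiments, 1 differed in direction between them on each plate: Atp5e, the epsilon subunit of complex V, was lower in old than in young cells on the plates of experiment 1 (log2 ratio of the sums -0.36) and higher on those of experiment 2 (0.43). It stood at 188 and 114 CPM (newborn), 121 and 92.5 CPM (young) and 94.2 and 125 CPM (old). The difference between the experiments was not tested.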

How the results depend on the processing

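Calls over all genes depended on the test. edgeR called 120 higher and 10 lower in young against newborn and 133 higher and 23 lower in old against newborn cells. With experiment as a replicate block it was 24 higher and 1 lower, and 46 higher and 5 lower, and the block called 0 members in the 3 comparisons. Age was the only term of the planned test, and the block was an alternative. The deviations of sums of the same experiment correlated at -0.000123 to 0.0127 over all genes, most of which were read in few cells. That correlation cannot settle pairing for the nuclear members, which differed between experiments as given above. DESeq2 called 1345 higher and 1012 lower, 397 higher and 650 lower (old against young) and 1436 higher and 1392 lower; limma 328 higher and 764 lower, and 289 higher and 1128 lower; thinned cells 241 higher and 45 lower, and 247 higher and 74 lower. No filter on low counts gave 20, 2 and 39 lower genes in the 3 comparisons. Of settings chosen after seeing the data, library size alone gave 76 and 86 higher genes against newborn, and widely read genes alone gave 373 higher and 119 lower, 9 lower (old against young) and 388 higher and 162 lower. Leaving out the plate of experiment 2 with the highest mitochondrial share gave 5 lower genes in young against newborn cells. Leaving out 1 sum at a time, a lone sum being assumed to vary like the others, gave 0 to 42 higher and 0 lower genes in young, and 0 to 45 and 0 to 4 in old against newborn cells.

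Among members, in young against newborn cells DESeq2, no filter, thinned cells, limma and widely read genes each called 1 nuclear gene higher (Ndufa4l2), and DESeq2 and limma each called 3 lower. In old against young cells DESeq2 called 1 higher and 1 lower. In old against newborn cells DESeq2 called 6 nuclear and 1 mitochondrial gene higher and 3 lower, limma called 10 lower, and widely read genes alone gave 1 higher.

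The nuclear medians were -1.0 (young against newborn), -0.14 (old against young) and -1.27 (old against newborn) with limma, and -0.64 in the first with library size alone. The mitochondrial medians were -0.65 and -0.44 against newborn with limma and -0.58 and -0.32 with library size alone. In old against newborn cells the mitochondrial median was -0.019 with no mitochondrial limit and 0.16 without the plate named above. Leaving out 1 sum gave nuclear medians of -0.39 to 0.18 (young against newborn), -0.052 to 0.29 (old against young) and -0.29 to 0.28 (old against newborn), and mitochondrial medians of -0.26 to 0.17 (young against newborn), 0.029 to 0.30 (old against young) and -0.17 to 0.36 (old against newborn). As medians over cells, the mitochondrial share was 1.76% in young and 2.17% in old cells.

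Single members turned sign with limma in Cox7a2l (-0.088, young against newborn), Uqcrc1 (-0.30, old against young) and Sdhb (-0.45, old against newborn). On leaving out 1 sum at a time, the values ranged across 0 in Ndufs1 (-1.28 to 0.060) in young against newborn cells. They did so in old against young cells in mt-Nd3 (-0.17 to 1.07), mt-Nd4 (-0.35 to 0.14), Sdhb (-0.56 to 0.70), Uqcrc2 (-0.92 to 0.034) and Atp5d (-0.42 to 0.16), and in old against newborn cells in mt-Atp8 (-1.44 to 0.046) and Sdhb (-0.23 to 0.90). None of these was called by edgeR. The other 990 values kept their direction and side of the threshold, or moved by less than the spread, and 18 passed a threshold they had missed. Except where fewer sums or genes enter by construction, the cause was not tested.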
